A study of Rattus norvegicus with 31 samples.

Results

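The genes described here are the nuclear genes of oxidative phosphorylation: every gene with a probe set of its own on the array whose symbol begins with Nduf (a, b, c, s or v), Sdh (a to d), Uqcr, Cox4 to Cox8 or Atp5. *Cox8b* and *Cox7a1* were set aside. The rule gave 88 of the 14217 genes that had a probe set annotated to them alone. Of these members, 34 encode subunits of complex I, 4 of complex II, 7 of complex III, 16 of complex IV (with *Ndufa4* and its paralog *Ndufa4l2*) and 15 of complex V. The other 12 match the rule by name but are no subunits: 6 assembly factors of complex I (Ndufaf), 4 of complex II (Sdhaf), *Atp5if1*, the inhibitor of complex V, and the pseudogene *Cox6c-ps1*. Where a gene had several probe sets (10 of the 88), the one with the highest mean in the tissue stands for it. The rule uses gene names and mean signals, but the members were chosen with earlier results of these data known.

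Wistar rats, male per the study's methods and 3 weeks old at the start, were kept on chow for a week, ate a low-fat (L), moderate-fat (M) or high-fat (H) diet freely for another week, and then stayed on it for 9 weeks. Carbohydrate and fat supplied 65 and 15% of the energy in the L-diet, 60 and 20% in the M-diet, and 35 and 45% in the H-diet, with lard in every diet and soybean oil as the fat that was varied. During the 9 weeks the L-group ate freely and the M- and H-groups were given the same energy as the L-group. Food was withdrawn from every rat 17 h before dissection, so that all values are those of fasted animals. Affymetrix arrays measured the liver of 5 L rats (L1 to L5), 4 M rats (M6, M8, M9 and M10) and 4 H rats (H12, H13, H15 and H16), and fat of the white (WAT) and the brown (BAT) kind of the same L and H rats, 1 array per rat and tissue. The depots of the adipose tissues are not given in the sources used here, and the submitters left out rats M_7 and H_11 because they ate less. All values are log2 signals. Each tissue was summarized by another method and on its own, so that values are compared within a tissue only, and no value of one gene is set against that of another. Within a tissue every array is a separate animal, and the limma p values below measure the spread between rats. The rank products FDR comes from permutations within arrays and does not measure that spread.

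Oxidative phosphorylation passes electrons from NADH (through complex I) and succinate (through complex II) over coenzyme Q, complex III and cytochrome c to oxygen at complex IV, and complexes I, III and IV pump protons out of the mitochondrial matrix. Complex V, the ATP synthase, uses the returning protons to make ATP. In brown fat the uncoupling protein UCP1 lets protons return without ATP synthesis, so that respiration yields heat, and brown adipocytes carry a large respiratory chain beside little ATP synthase. Most subunits are encoded in the nucleus, where the factors NRF1, GABPA (of the ETS family), ESRRA, YY1 and their coactivators of the PGC-1 family are known regulators. The subunits encoded by mitochondrial DNA carry other symbols and are not among the members.

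The promoters of a few members are shown because the members varied together within each tissue and because these promoters hold letters of those regulators. RefSeq (build GRCr8) gave a start site for 80 of the 88 members. *Atp5pd*, *Cox4i2*, *Cox6a1*, *Cox6c*, *Cox6c-ps1*, *Ndufa8*, *Ndufb9* and *Uqcr11* had no entry. Each line below gives the 250 bases before the start site, 5′ to 3′, with the letters of an NRF1, ETS, ESRRA or YY1 motif in capitals. *Ndufs8*, *Cox5b* and *Ndufa5* were among the members with the smallest p in BAT, *Ndufa11* had the smallest p in WAT, and *Atp5mc3* was lower in BAT in the mean.
Ndufs8, chr1:210573699-210573948, minus strand: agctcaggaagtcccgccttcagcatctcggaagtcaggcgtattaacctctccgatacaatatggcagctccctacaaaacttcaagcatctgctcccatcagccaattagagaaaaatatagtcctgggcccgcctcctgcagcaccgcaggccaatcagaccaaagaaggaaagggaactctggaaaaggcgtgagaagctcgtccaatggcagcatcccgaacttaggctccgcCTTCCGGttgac
Cox5b, chr9:46417587-46417836, plus strand: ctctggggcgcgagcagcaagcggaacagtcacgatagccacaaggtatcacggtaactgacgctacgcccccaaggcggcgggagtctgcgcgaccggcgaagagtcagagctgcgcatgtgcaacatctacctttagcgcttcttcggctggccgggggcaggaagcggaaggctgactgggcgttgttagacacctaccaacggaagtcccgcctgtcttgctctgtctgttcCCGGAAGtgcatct
Ndufa5, chr4:53971236-53971485, minus strand: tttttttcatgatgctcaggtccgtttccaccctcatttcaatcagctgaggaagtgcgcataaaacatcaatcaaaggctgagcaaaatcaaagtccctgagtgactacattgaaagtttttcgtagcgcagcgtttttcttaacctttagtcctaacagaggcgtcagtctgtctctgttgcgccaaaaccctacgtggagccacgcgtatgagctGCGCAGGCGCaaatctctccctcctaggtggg
Ndufa11, chr9:1637364-1637613, plus strand: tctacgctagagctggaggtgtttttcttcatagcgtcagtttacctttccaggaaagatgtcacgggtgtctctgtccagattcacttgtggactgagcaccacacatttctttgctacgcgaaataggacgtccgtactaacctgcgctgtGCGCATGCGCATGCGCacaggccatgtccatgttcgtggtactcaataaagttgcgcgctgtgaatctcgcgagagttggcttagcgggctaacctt
Atp5mc3, chr3:79220665-79220914, minus strand: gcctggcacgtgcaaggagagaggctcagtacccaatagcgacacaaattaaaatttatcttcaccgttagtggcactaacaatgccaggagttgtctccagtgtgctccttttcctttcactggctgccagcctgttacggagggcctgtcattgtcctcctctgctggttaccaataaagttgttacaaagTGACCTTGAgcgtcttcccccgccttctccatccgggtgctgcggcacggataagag
The ETS letters CCGGAAG begin 12 bases before the start of *Ndufs8* (on the other strand) and 14 bases before that of *Cox5b*. The NRF1 letters (GCGC, any base, TGCGC) begin 32 bases before the start of *Ndufa5* on the other strand, and in *Ndufa11* overlapping matches begin 97 and 91 bases before it. In *Atp5mc3* the ESRRA letters TNAAGGTCA begin 57 bases before the start on the other strand.

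Searched on both strands from 250 bases before to 50 after the start, the NRF1 letters occurred in 17 of the 80 member promoters (21.25%) against 4.25% of all 33469 promoter windows. CCGGAAG occurred in 25 (31.25%) against 8.75%, the YY1 letters AAGATGGCG in 11 (13.75%) against 1.73%, and TNAAGGTCA in 3 (3.75%) against 1.20%. The SP family letters GGGCGG were in 37 (46.25%) against 33.1%, and the TATA box letters TATAAA in 7 (8.75%) against 14.2%. None of these motifs contains another. In all, 45 of the 80 members (56.25%) held at least 1 of the first 4, where 4392 of the 27457 genes with a promoter did. The median H minus L difference in BAT was 0.15 for the 25 members with CCGGAAG and 0.15 for the 55 without it, and 0.13 for the 17 with the NRF1 letters against 0.16 for the 63 without. A match is a description of the letters and not a measured binding site.

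Markers of each tissue mostly lay above the median of all probe sets on its arrays, and so did markers of some other cells. All 7 hepatocyte markers lay above the median of all probe sets in the liver, all 6 adipocyte markers did so in WAT and BAT, and 5 of 6 brown adipocyte markers did so in BAT, where the remaining one, *Elovl3*, lay at the lowest value. Of the 7 hepatocyte markers 4 lay within 0.1 of the lowest value in BAT. The median of BAT was 2.45, near its lowest value of 2.29. In BAT 9 of 10 skeletal muscle and 5 of 5 fibroblast markers also lay above the median. In the liver 5 of 5 macrophage and 5 of 5 fibroblast markers did so. Skeletal muscle markers stood apart on 2 BAT arrays, those of H13 and H15, and the BAT array of H16 had the largest gap between the 3′ and 5′ probe sets of the *Gapdh* control (0.63, the others 0.36 to 0.46). In the liver M9 had the largest gap (0.48, the others 0.16 to 0.39). In WAT 25762 of 31042 probe sets held the same value on every array, and 37 of the 88 members were among them. In BAT 2 members, *Cox6b2* (a testis form) and *Cox7b2*, held the lowest value on every array. All 88 members varied in the liver, 51 in WAT and 86 in BAT.

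None of the 88 members passed limma at an adjusted p under 0.05, or rank products at an FDR under 0.05, in any of the 5 comparisons. The levels per rat are described first. Each gene was centred on its own mean over the tissue, and the level of a gene set in a rat averages these centred log2 values.

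**Figure D1:**
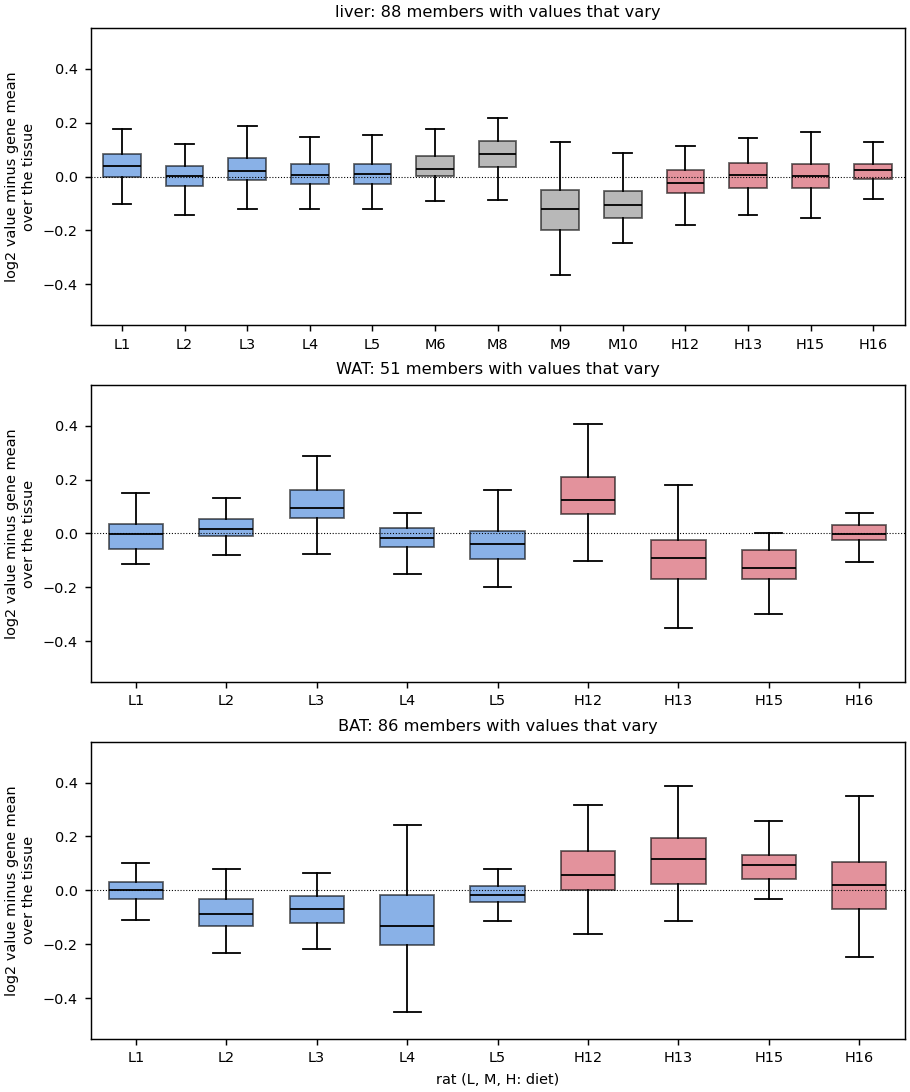
Log2 value of each member minus its own mean over the tissue (y axis) in each rat (x axis), for the liver, WAT and BAT; boxes span the quartiles over the members that vary, lines mark medians, whiskers reach the farthest value within 1.5 box heights, and blue, grey and red mark the L-, M- and H-diets. In the liver M9 and M10 lie below the other rats, in WAT H12 and L3 lie above and H13 and H15 below, and in BAT the H rats lie above most L rats.

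In BAT nearly the whole set leaned one way. Of the 86 members that varied, 77 were higher in the H-group than in the L-group in the mean and 9 were lower, with a median log2 difference of 0.14, or 1.11-fold. The median was 0.0074 over the 15521 probe sets above the tissue median, and 0.057 over the 223 probe sets brighter than the median member, of which 149 were higher. The brighter members are themselves among these 223 probe sets, and the dimmer members are not. No member passed limma, whose smallest adjusted p was 0.402, and limma called 0.0% of all probe sets. Rank products called none of the members and 1.99% of all probe sets. Without adjustment, at a p under 0.05, limma gave 40 members higher and 1 lower, against 2.66% higher among all probe sets. Of the 15521 probe sets above the tissue median 816 were higher at that p, and of the 223 brighter than the median member 53 were. In 27 members all 4 H rats lay above all 5 L rats, against 0.838% of all probe sets, and no member showed the opposite. The same held for 259 of the 15521 and for 29 of the 223 probe sets. In this bulk tissue more cells of a type and more RNA per cell cannot be told apart.

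The level of all members was -0.019, -0.073, -0.067, -0.12 and 0.00012 in L1 to L5, and 0.081, 0.11, 0.092 and 0.00070 in H12, H13, H15 and H16. The lowest H rat, H16, and the highest L rat, L5, thus lay within 0.001 of each other, with every other H rat above every L rat. The array of H13 held the highest value of the tissue for 33 of the 86 members, that of H16 for 22 and that of H15 for 16. The array of L4 held the lowest value for 41 and that of L2 for 27.

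**Figure D2:**
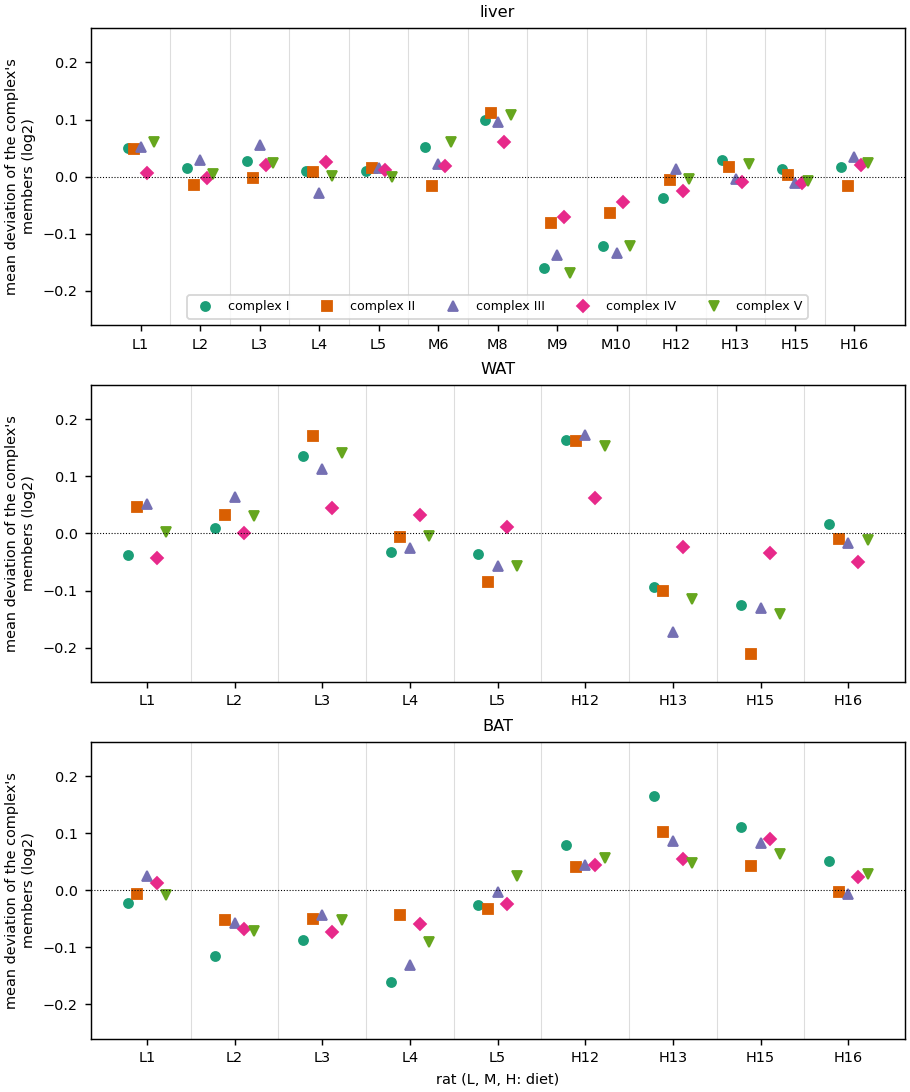
Mean deviation of the members of each complex from their tissue means (y axis, log2) in each rat (x axis) for the liver, WAT and BAT; only members that vary enter, and each symbol is 1 complex. The complexes of a rat mostly shift together, and complex I lies above 0 in all 4 H rats and below 0 in all 5 L rats of BAT.

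Complex I, the entry of NADH electrons, leaned furthest in BAT. All 34 of its members were higher in the H-group, with a median difference of 0.18 and a range from 0.018 to 0.50. Of these, 20 had an unadjusted p under 0.05 and 14 showed no overlap. Its level was -0.022, -0.12, -0.087, -0.16 and -0.025 in the L rats and 0.080, 0.16, 0.11 and 0.052 in the H rats, so that the groups did not overlap. *Ndufs7*, a core subunit with an iron-sulfur cluster next to the coenzyme Q site, had the smallest p of all members. Its log2 values were 12.41, 12.31, 12.42, 12.33 and 12.43 in the L rats and 12.61, 12.72, 12.60 and 12.63 in the H rats. The difference was 0.26 (SE 0.037, limma, adjusted p = 0.402), and the lowest H rat lay above the highest L rat.

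*Ndufs8*, another core iron-sulfur subunit, had the largest difference of any member. It measured 11.27, 11.07, 11.20, 11.01 and 11.21 in the L rats and 11.64, 11.76, 11.47 and 11.72 in the H rats, without overlap. The H-group was 1.41-fold higher (log2 0.50, SE 0.077, limma, adjusted p = 0.402, rank products FDR = 0.0672). *Ndufa5*, an accessory subunit of the peripheral arm, measured 10.49, 10.51, 10.56, 10.37 and 10.64 in the L rats and 10.84, 10.99, 10.89 and 10.83 in the H rats. These also did not overlap, with a difference of 0.38 (SE 0.059, limma, adjusted p = 0.402). *Ndufv2*, a core subunit of the NADH-oxidizing module, followed with a difference of 0.32 (SE 0.068), and its partner *Ndufv1*, which binds the flavin, had one of 0.035 (SE 0.056). Among the other core subunits the difference was 0.20 for *Ndufs3* and 0.079 for *Ndufs1*, the latter with a 95% confidence interval of -0.091 to 0.25. The smallest differences of the complex were those of *Ndufs4*, 0.018 (SE 0.018), and *Ndufb8*, 0.032 (SE 0.036), both of which held an identical value on several arrays (*Ndufb8* on 8 of 9). Such repeated values occurred in 35 of the 86 members in BAT and in 25 of the 88 in the liver.

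**Figure D3:**
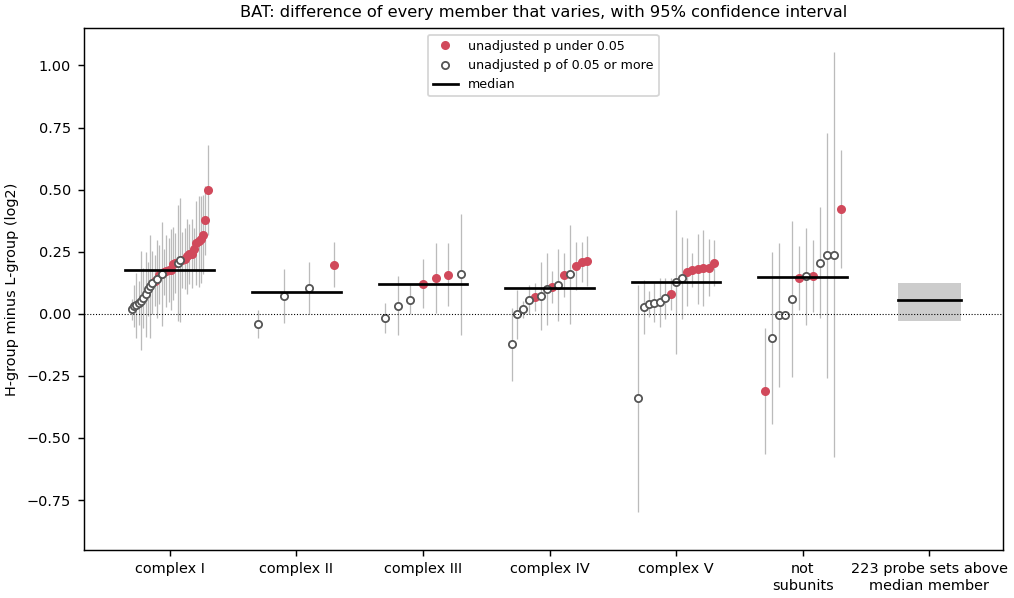
H-group minus L-group difference in BAT (y axis, log2) of every member that varies, by complex (x axis); points are members, grey lines their 95% confidence intervals from limma, filled red points have an unadjusted p under 0.05, and black bars are medians. The grey box at the right spans the quartiles of the 223 probe sets brighter than the median member, the brighter members included, with a median of 0.057. All 34 members of complex I lie above 0.

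Complex II carries electrons from succinate and has 4 members. *Sdhb*, its iron-sulfur subunit, measured 13.30, 13.25, 13.21, 13.34 and 13.29 in the L rats and 13.37, 13.50, 13.51 and 13.53 in the H rats, which did not overlap. The difference was 0.20 (SE 0.039, limma, adjusted p = 0.503). *Sdha*, the flavoprotein that oxidizes succinate, had a difference of -0.041 with a confidence interval of -0.10 to 0.015. The membrane anchors *Sdhc* and *Sdhd* gave 0.10 (SE 0.045) and 0.073 (SE 0.046). The median of the complex was 0.088.

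Complex III had a median of 0.12 over 7 members, 6 of them higher and 3 with an unadjusted p under 0.05. *Uqcrfs1*, the Rieske iron-sulfur protein, measured 13.68, 13.68, 13.60, 13.45 and 13.67 in the L rats and 13.76, 13.81, 13.81 and 13.71 in the H rats. Every H rat lay above every L rat, with L4 well below the rest of its group, and the difference was 0.16 (SE 0.054, limma, adjusted p = 0.946). *Uqcrh*, the hinge protein, had a difference of 0.16 with a wider SE of 0.10, and H16 at 13.05 lay below 4 of the 5 L rats. The core proteins *Uqcrc1* and *Uqcrc2* differed by 0.032 and 0.057, and *Uqcr10* by -0.016.

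Complex IV, cytochrome c oxidase, had 14 members that varied in BAT, of which 12 were higher, with a median of 0.10. *Cox5b* led the complex with 13.56, 13.48, 13.46, 13.46 and 13.51 in the L rats and 13.63, 13.67, 13.75 and 13.77 in the H rats. The groups did not overlap, and the difference was 0.21 (SE 0.035, limma, adjusted p = 0.402). *Ndufa4*, once counted to complex I and now known as a subunit of complex IV, had a difference of 0.21 (SE 0.043), *Cox7c* of 0.19 (SE 0.041) and *Cox7b* of 0.16 (SE 0.038), all without overlap. *Cox7a2l*, which joins complexes III and IV in supercomplexes, was lower in the mean at 11.08, 11.01, 10.94, 11.14 and 11.01 in the L rats and 11.01, 10.87, 11.01 and 10.77 in the H rats. H12 and H15 lay among the L rats and H13 and H16 below them, and the difference of -0.12 had an SE of 0.063 (limma, adjusted p = 0.97).

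Several subunits of complex IV exist in a widely used form and in a form of particular tissues. In BAT *Cox4i1*, the general form of subunit 4, had a mean of 13.67 ± 0.086 in the L-group (SD, n = 5) and 13.79 ± 0.10 in the H-group (SD, n = 4), while *Cox4i2*, the form of the lung, stayed at 2.33 on 8 of the 9 arrays and at 2.40 on that of H16. *Cox6a2*, the form of heart and skeletal muscle, lay at the lowest value, 2.29, on 7 arrays, at 2.30 in H13 and at 2.57 in H15. The last 2 are the rats with high skeletal muscle markers. *Cox6a1*, the general form, differed by 0.10 (SE 0.061), and *Cox6b1* by 0.067 (SE 0.024). *Ndufa4l2*, a paralog of *Ndufa4* that hypoxia induces in many cells, lay between 2.30 and 2.45 on every array, near the lowest value.

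Complex V, the ATP synthase, had a median of 0.13, with 14 of 15 members higher and 7 with an unadjusted p under 0.05, and one of 0.068 without L4. *Atp5mf* (subunit f) measured 12.92, 12.81, 12.82, 12.81 and 12.90 in the L rats and 12.995, 13.06, 13.03 and 13.03 in the H rats, without overlap. The difference was 0.18 (SE 0.030, limma, adjusted p = 0.402). *Atp5po*, the stalk subunit OSCP, likewise showed no overlap, with a difference of 0.20 (SE 0.040). The catalytic subunits *Atp5f1a* (alpha) and *Atp5f1b* (beta) differed by 0.046 (SE 0.042) and 0.044 (SE 0.033), with confidence intervals of -0.053 to 0.15 and -0.034 to 0.12.

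The exception in complex V was *Atp5mc3*, 1 of several genes for subunit c, which forms the rotating ring that protons turn. It measured 11.95, 12.59, 12.25, 12.48 and 12.65 in the L rats and 12.44, 11.68, 12.06 and 11.996 in the H rats. H12 lay among the higher L rats and H13 below all of them, and L1 lay below 3 of the 4 H rats. The difference was -0.34 with a wide interval of -0.80 to 0.12 (limma, adjusted p = 0.97, rank products FDR = 0.0939). Without H12 rank products called it lower (FDR = 0.0393), and it was the only member called in BAT when any single rat was left out. *Atp5if1*, which binds the ATP synthase and stops it from splitting ATP, was also lower in the mean, at 7.44, 7.22, 6.89, 7.27 and 7.30 in the L rats and 6.99, 6.80, 6.97 and 6.89 in the H rats. All 4 H rats lay below 4 of the 5 L rats, and L3 lay among the H rats, with a difference of -0.31 (SE 0.11, limma, adjusted p = 0.963). It was the only member lower at an unadjusted p under 0.05.

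**Figure D4:**
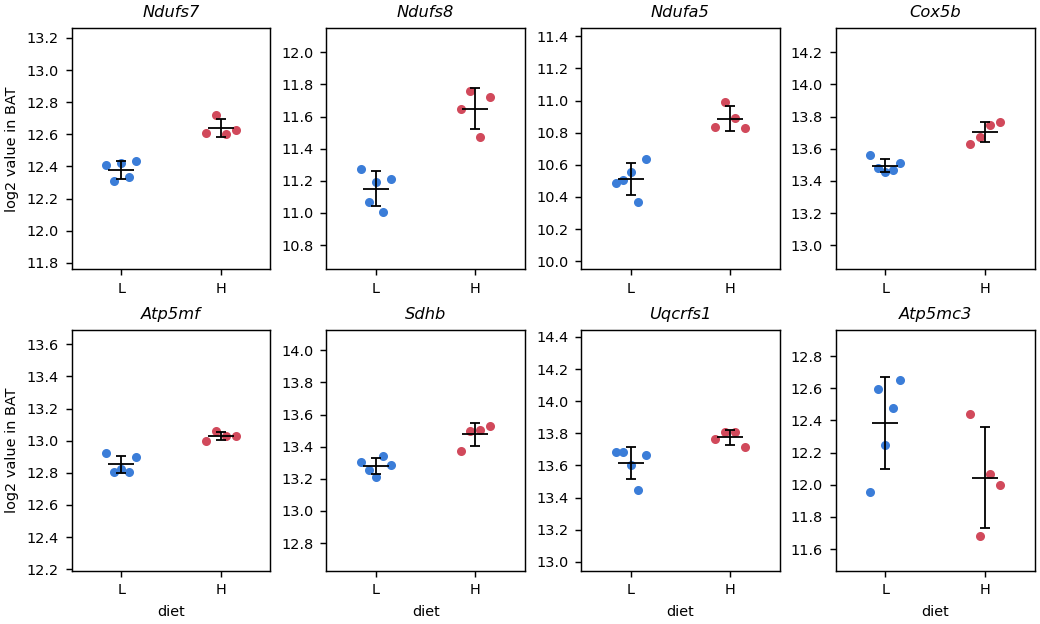
Log2 value in BAT (y axis) of 8 members in the 5 L rats (blue) and 4 H rats (red); points are rats, long bars are means, whiskers are 1 SD, and every panel spans 1.5 log2 units. The groups do not overlap in Ndufs7, Ndufs8, Ndufa5, Cox5b, Atp5mf, Sdhb and Uqcrfs1, and they overlap in Atp5mc3, whose H mean is lower.

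Among the genes that are no subunits, 8 were higher and 4 lower, at a median of 0.15, which was 0.069 without H12, 0.050 with H13 and H15 left out and 0.021 with the muscle level as a covariate. *Ndufaf8*, needed for the iron-sulfur side of complex I assembly, measured 7.72, 7.62, 7.56, 7.36 and 7.64 in the L rats and 8.08, 8.09, 8.09 and 7.74 in the H rats. The groups did not overlap, and the difference of 0.42 (SE 0.10, limma, adjusted p = 0.619) was the second largest of all members. *Ndufaf4*, another complex I assembly factor, had the widest range of any member in BAT, from 8.76 in H16 to 10.37 in H12, and its difference of 0.24 was smaller than its SE of 0.35. For *Sdhaf2*, which helps to attach the flavin of complex II, the difference was -0.10 (SE 0.15) with the lowest value again in H16. The level of the 12 genes that are no subunits was 0.20, 0.11, 0.11 and -0.20 in H12, H13, H15 and H16, so that H16 lay below every L rat (the lowest L rat at -0.17), while the level of the 76 subunits in H16 was 0.033.

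Markers of skeletal muscle were high in the BAT of H13 and H15. Of 11 listed, 10 were measured, all 10 were higher in the H-group in the mean, and rank products called 8 of them higher. Their level was -0.59, -0.78, -0.73, -0.83 and -0.66 in the L rats, and -0.48, 1.87, 2.80 and -0.59 in H12, H13, H15 and H16, so that only H13 and H15 stood apart. On the L arrays *Acta1*, *Myh4*, *Tnnt3* and *Tnnc2* lay at the lowest value. With H13 and H15 left out, a setting chosen after seeing the data, H12 and H16 alone stood for the H-group. There 74 of the 86 members were higher in the mean, at a median of 0.092. Of the members 20 were higher and 0 lower at an unadjusted limma p under 0.05, against 1.31% higher and 1.36% lower of all probe sets. With the muscle level as a covariate 73 were higher, at a median of 0.086. At that p 21 were higher and 0 lower, against 1.33% and 1.69% of all probe sets. Complex I had the largest median of the 5 complexes under both settings, at 0.13. *Ndufs8* measured 11.64 in H12 and 11.72 in H16, above all 5 L rats. The part of muscle in the differences of the members was not tested. The gap between 3′ and 5′ control probe sets was largest in H16, and without that rat 79 members were higher, at a median of 0.16.

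Marker levels of some other cell types also differed between the diets in BAT. The level of the adipocyte markers, of which 6 of 7 were measured, 1 higher and 5 lower, was 0.064, 0.10, 0.054, 0.19 and 0.032 in the L rats, and -0.067, -0.0053, -0.19 and -0.18 in the H rats. That of the endothelial markers, of which 4 of 5 were measured, 2 higher and 2 lower, was 0.030, -0.18, -0.21, -0.14 and 0.011 in the L rats, and 0.16, 0.11, 0.12 and 0.10 in the H rats. Neither level overlapped between the diets, the first lying lower and the second higher in the H rats, and their part in the differences of the members was not tested. In each of these lists only 1 gene had an unadjusted limma p under 0.05, *Lep* (lower) among the adipocyte and *Kdr* (higher) among the endothelial markers. Of the 6 brown adipocyte markers, which include *Cox8b* and *Cox7a1*, 4 were higher and 2 lower (median 0.14), 3 of them higher at that p. Their level was 0.0088, 0.070, -0.14, -0.092 and -0.19 in the L rats. It was 0.078, -0.0099, 0.23 and 0.051 in H12, H13, H15 and H16, with overlap, and its part was not tested either.

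**Figure D5:**
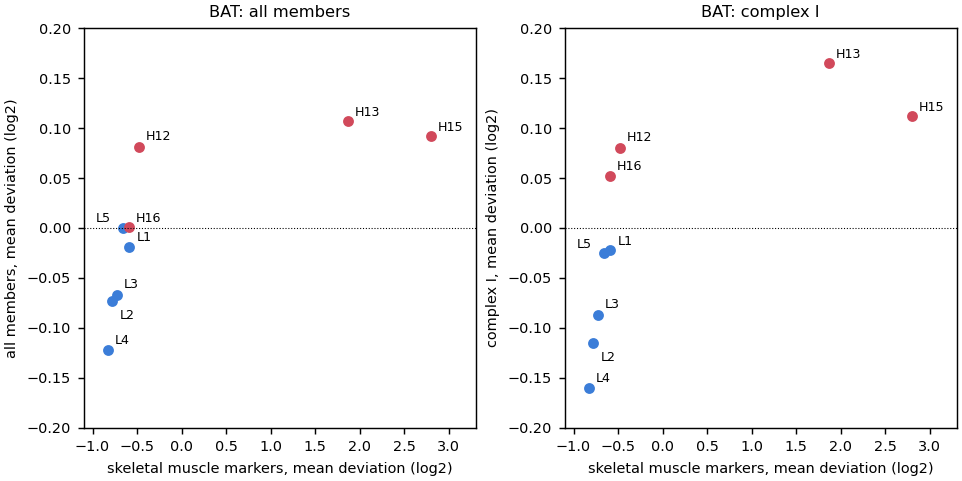
Level of all members (left, y axis, log2) and of complex I (right, y axis, log2) against the level of the skeletal muscle markers (x axis, log2) in the 9 BAT arrays; each point is 1 rat, L in blue and H in red. H13 and H15 stand apart on the x axis, at 1.87 and 2.80, while H12 and H16, at -0.48 and -0.59, lie beside the L rats on that axis and above all of them for complex I.

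Other mitochondrial lists were taken beside the members in BAT. The smallest adjusted limma p of any gene in them was 0.402. Of the 73 genes of the mitochondrial ribosome, which makes the subunits encoded by mitochondrial DNA, 64 were higher in the H-group, at a median of 0.14, and 29 of them had an unadjusted p under 0.05, *Mrpl53* first (0.34, SE 0.054). All 12 measured enzymes of the TCA cycle were higher (median 0.10, 4 at an unadjusted p under 0.05, *Idh2* first with 0.38, SE 0.093), as were 10 of 11 genes of coenzyme Q synthesis (median 0.17, *Coq9* first with 0.19, SE 0.038), 6 of 8 that feed electrons to coenzyme Q by other routes (0.22, *Etfa* first with 0.20, SE 0.049), 20 of 27 assembly factors outside the rule (0.071, *Ecsit* first with 0.31, SE 0.071) and 12 of 18 import genes (0.084, *Hspe1* first with 0.18, SE 0.051). H16 did not follow in most of these lists. Its level was -0.089 for the TCA cycle, -0.10 for coenzyme Q synthesis, -0.12 for the assembly factors and -0.13 for import. For the mitochondrial ribosome it was -0.028, and in all of these lists it lay within the range of the L rats. For the electron entry genes it was 0.099, above every L rat. Of the electron entry genes rank products called *Chdh*, the choline dehydrogenase, lower (-0.63, SE 0.31, FDR = 0.00773). The electron and substrate carriers split 5 to 4 (0.0054). *Slc25a3*, which brings phosphate to the ATP synthase, was lower in every H rat than in every L rat, at 13.04 ± 0.070 in the L-group (SD, n = 5) and 12.72 ± 0.099 in the H-group (SD, n = 4) (-0.32, SE 0.055, limma, adjusted p = 0.402, rank products FDR = 0.0668). Among the biogenesis regulators 7 were higher and 6 lower, and rank products called *Ppargc1b* (log2 difference 0.75, SE 0.11, FDR = 0.0109), a coactivator of the PGC-1 family, and *Ppara*, a fatty acid receptor (0.70, SE 0.33, FDR = 0.0332), higher. *Cox8b*, set aside by the rule, is the subunit 8 form of brown fat and muscle. It measured 13.66 ± 0.12 in the L-group (SD, n = 5) and 14.29 ± 0.098 in the H-group (SD, n = 4) and was called higher by rank products (FDR = 0.0231) but not by limma (adjusted p = 0.291).

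In the liver the mean differences between diets were small. In L vs H 35 members were higher in the H-group and 53 lower, at a median of -0.016, against -0.00064 for all probe sets. In L vs M 16 were higher in the M-group and 72 lower (median -0.042), and in M vs H 67 were higher in the H-group and 21 lower (median 0.025). Limma called none of the members, and 0.0354, 0.00644 and 0.0129% of all probe sets in L vs H, L vs M and M vs H. Rank products called none, and 1.4, 0.403 and 0.725% of all probe sets. With unadjusted p values under 0.05 limma gave 1 member in L vs H, 2 in L vs M and 1 in M vs H, against 2809, 1252 and 1827 of 31042 probe sets. The smallest adjusted p of a member was 0.534, 0.9999 and 0.826 in the same order. The comparisons share their diet groups and are not independent of each other.

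The M rats were split. The level of all members was 0.037, 0.0036, 0.025, 0.014 and 0.012 in L1 to L5, 0.036, 0.080, -0.12 and -0.10 in M6, M8, M9 and M10, and -0.020, 0.013, 0.00019 and 0.020 in H12, H13, H15 and H16. M9 and M10 lay below every other liver and M8 above every other one. The SD of the level was 0.099 in the M-group against 0.013 in the L-group and 0.017 in the H-group. M9 held the lowest value of the 13 livers for 44 members and M10 for 18, and M8 held the highest for 36. The split ran through every complex, with M9 at -0.16 for complex I, -0.081 for II, -0.14 for III, -0.070 for IV and -0.17 for V. The members with the widest range in their complex, *Ndufb8*, *Sdhc*, *Uqcrfs1*, *Cox8a* and *Atp5mg*, with ranges from 0.36 to 0.56, had their lowest value in M9, and so had *Ndufaf4*, with a range of 0.63. *Cox8a*, the general form of subunit 8, measured 11.55, 11.44, 11.48, 11.31 and 11.45 in the L rats, 11.52, 11.59, 11.17 and 11.19 in the M rats and 11.39, 11.35, 11.36 and 11.41 in the H rats. Without M9 the L vs M median was -0.011 with 48 members lower, and the M vs H median was 0.00035 with 45 members higher and 43 lower. Without M10 these medians were -0.020 and 0.0048, and without M8 they were -0.075 and 0.072.

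Some other mitochondrial lists moved with the split. The 73 genes of the mitochondrial ribosome had levels of -0.11 in M9 and -0.10 in M10, against 0.025 in M6 and 0.036 in M8. The TCA cycle stood at -0.11 and -0.087, and mitochondrial import at -0.11 and -0.071. The hepatocyte markers were at -0.075 in M9 and -0.017 in M10, within the range of the L rats (-0.075 to 0.10). The macrophage markers (5 of 7 measured) were at 0.49 in M9 but at -0.23 in M10, and at 0.30 in M6 and -0.15 in M8. Their L rats lay between -0.25 and -0.048 and their H rats between -0.12 and 0.32. The 3′ to 5′ gap of *Gapdh* was 0.481 in M9 and 0.298 in M10, against 0.342 in M6 and 0.293 in M8. The part of these values in the split was not tested.

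The members with an unadjusted p under 0.05 in L vs M were *Uqcrfs1* and *Sdhaf4*, both lower. *Uqcrfs1* measured 10.82, 10.84, 10.88, 10.67 and 10.79 in the L rats, 10.65, 10.91, 10.35 and 10.45 in the M rats and 10.55, 10.66, 10.78 and 10.70 in the H rats. M9 and M10 lay below all other rats and M8 above them, and the L vs M difference was -0.21 (SE 0.10, unadjusted p = 0.0474 from limma). *Sdhaf4*, an assembly factor of complex II, had an L vs M difference of -0.19 (SE 0.088), with L4 at 7.57 as the highest of all livers and M10 at 6.97 as the lowest. In M vs H *Ndufaf4* had the smallest p and measured 7.97, 7.91, 7.64 and 7.91 in the M rats and 8.02, 8.22, 7.85 and 8.27 in the H rats. H15 lay among the M rats, and the M vs H difference was 0.23 (SE 0.10, limma, adjusted p = 0.826).

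In L vs H the smallest p was that of *Ndufaf8*, which measured 6.95, 6.82, 6.91, 6.85 and 6.997 in the L rats and 6.81, 6.85, 6.71 and 6.73 in the H rats. H13 lay within the L range, and the difference was -0.13 (SE 0.057, limma, adjusted p = 0.534). All 4 H rats lay below all 5 L rats for 3 members, against 1.46% of all probe sets. These were *Ndufs7* (-0.13, SE 0.087), *Ndufb8* (-0.11, SE 0.088) and *Ndufb10* (-0.087, SE 0.081), all of complex I, and no member lay the other way. *Ndufs7* measured 9.9999, 10.04, 9.97, 9.89 and 9.89 in the L rats and 9.69, 9.88, 9.86 and 9.87 in the H rats, with a gap of under 0.02 between the groups, and its M rats ran from 9.56 in M9 to 10.05 in M8. On the higher side *Cox4i1* had a difference of 0.11 (SE 0.074) and *Ndufs4* of 0.071 (SE 0.044), each with overlap.

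By complex the L vs H medians of the liver were -0.018 for complex I, -0.011 for II, -0.041 for III, -0.019 for IV and -0.014 for V. Their order changed with single rats left out. Without H13 complex III had -0.0079 and complex II -0.027, and complex V turned to 0.0066 without L1 and to 0.0057 under another quantile normalization. *Ndufa4l2* had a difference of -0.12 (SE 0.059) with means of 4.68 ± 0.091 (SD, n = 5) and 4.56 ± 0.055 (SD, n = 4), while *Ndufa4* had one of -0.0050 (SE 0.044). The forms of other tissues, *Cox4i2*, *Cox6a2*, *Cox6b2* and *Cox7b2*, had liver means between 2.67 and 3.45 and differed by less than 0.10 between L and H.

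Among the other mitochondrial lists of the liver the smallest adjusted limma p was 0.312 in L vs H, 0.9999 in L vs M and 0.315 in M vs H. The 8 genes that feed electrons to coenzyme Q by other routes had most of the rank products calls. In L vs M 7 of the 8 were lower (median -0.099), and rank products called *Gpd2*, the mitochondrial glycerol phosphate dehydrogenase (-0.61, FDR = 0.0123), and *Sqor*, the sulfide oxidase (-0.51, FDR = 0.0388), lower. In M vs H all 8 were higher (median 0.12), and *Gpd2*, *Sqor* and *Prodh*, the proline dehydrogenase, were called higher (0.69, 1.09 and 0.49). In L vs H 5 were higher (median 0.046), and *Sqor* alone was called (0.58, FDR = 0.0392). Of the biogenesis regulators, *Ppargc1b* (0.52, FDR = 0.0404) and *Gabpb1*, the partner of GABPA (0.56, FDR = 0.0185), were called higher in L vs H, whereas the list split 7 to 8. The L vs H medians were 0.0094 for the TCA cycle, -0.030 for coenzyme Q synthesis, 0.00072 for the assembly factors outside the rule, -0.0015 for import, -0.0061 for the mitochondrial ribosome and -0.00058 for the carriers.

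In WAT only 51 members could be compared, since 37 held a single value on every array. These 37 include 15 of the 34 members of complex I, 7 of 16 of complex IV, 6 of 15 of complex V and 9 of the 12 that are no subunits. Of the 51, 13 were higher in the H-group and 38 lower, at a median of -0.026, while the 5280 probe sets that varied had a median of 0.018. *Cox7a2l*, counted among the 13, differed by only 0.00014, over a range of 0.00037. Limma called 0 members and 0.0% of these probe sets (the smallest adjusted p of a member was 0.626), and gave 1 member and 413 of the 5280 probe sets at an unadjusted p under 0.05. Rank products called 0 members and 1.86% of all probe sets.

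The rats of both groups were spread more widely in WAT than the groups differed. The level of the 51 members was -0.010, 0.021, 0.11, -0.0064 and -0.037 in L1 to L5, and 0.14, -0.10, -0.11 and -0.0071 in H12, H13, H15 and H16. H12 lay above and H13 and H15 below every L rat, and L3 was the second highest. H12 held the highest value of the 9 arrays for 25 members and L3 for 17, H15 the lowest for 23 and H13 for 15. The direction of the set rested on these rats: without H15 the median was 0.00023, with 28 members higher and 23 lower, and without L3 it was -0.0040. Without H12 the median was -0.086, with 49 of 51 lower.

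Without H12 rank products called 12 members lower in WAT, and 484 probe sets lower in all against 334 with every rat. These 12 were *Uqcrc2*, *Uqcrfs1*, *Uqcrq* and *Uqcr10* of complex III, *Atp5f1b*, *Atp5mc3*, *Atp5mg* and *Atp5pb* of complex V, *Ndufab1* and *Ndufa11* of complex I, *Sdhd* of complex II and the assembly factor *Sdhaf2*. No member was called with all rats or without any other rat. At an unadjusted p under 0.05 limma gave 1 member higher and 9 lower without H12, and none passed its adjusted p. Of the 5279 probe sets that varied without H12, 7.86% were higher and 4.77% lower at that p. With every rat these shares were 4.87% and 2.95% of 5280.

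By complex the medians in WAT were -0.0052 for complex I, -0.064 for II (4 of 4 lower), -0.083 for III (6 of 7 lower), -0.019 for IV and -0.060 for V (9 of 9 lower). Without H15 those of complexes II and V were -0.0093 and -0.034, without L3 they were -0.028 and -0.037, and without H13 that of complex III was -0.038. *Ndufa11*, a membrane subunit of complex I, had the smallest p. It measured 10.04, 10.11, 10.16, 10.10 and 10.04 in the L rats and 10.11, 9.89, 9.86 and 9.98 in the H rats. H12 lay among the L rats and the other 3 below them, with a difference of -0.13 (SE 0.054, limma, adjusted p = 0.626). *Uqcr10*, a small subunit of complex III, differed by -0.10 (SE 0.054, limma, adjusted p = 0.733) and *Sdhc* by -0.11 (SE 0.071).

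*Ndufab1*, the mitochondrial acyl carrier protein that also sits in complex I, had the largest mean difference in WAT. It measured 10.72, 10.93, 11.03, 10.87 and 10.91 in the L rats and 11.13, 10.56, 10.56 and 10.68 in the H rats. H12 was the highest of all and the other 3 H rats the lowest, so that the difference of -0.16 had an SE of 0.13 (limma, adjusted p = 0.828, rank products FDR = 0.078). *Atp5if1* was higher in the mean, by 0.10 (SE 0.067, limma, adjusted p = 0.804), with its lowest values in L3 at 9.29, L2 at 9.32 and H12 at 9.33. *Ndufv3* (0.093), *Ndufb2* (0.030) and *Cox8a* (0.021) were higher in the mean and turned lower without H12. *Cox6b2* had the widest range, from 7.05 in H16 to 7.93 in L4, with a difference of -0.082 (SE 0.18), while *Cox6b1*, *Cox4i2*, *Cox6a2* and *Ndufa4l2* held 1 value. *Cox4i1* and *Ndufa4* differed by -0.0046 (SE 0.037) and -0.023 (SE 0.056). *Uqcrfs1* ranged from 10.55 in H13 to 11.20 in H12, and *Sdha* from 10.63 in H15 to 11.22 in L3.

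Fibroblast markers moved against the members in WAT. All 5 were measured, and their level was 0.19, -0.014, -0.50, 0.22 and -0.19 in the L rats, and -0.38, 0.13, 0.78 and -0.23 in H12, H13, H15 and H16. The rats with the highest members, H12 and L3, had the lowest fibroblast levels, and H15, with the lowest members, had the highest one. The adipocyte level was 0.21 in H12 and -0.17 in H15, and the macrophage level 0.29 in H15 and -0.20 in L3. The part of these cells in the spread of the members was not tested. The TCA cycle moved with the members, at 0.24 in H12, 0.17 in L3, -0.14 in H13 and -0.11 in H15.

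Of the other mitochondrial lists in WAT the smallest adjusted limma p was 0.332. All 5 import genes that varied were lower (median -0.11, 2 at an unadjusted p under 0.05), with *Timm50*, a part of the inner membrane translocase, called lower by rank products (-0.26, FDR = 0.0110). In the mitochondrial ribosome 10 of the 16 genes that varied were lower, *Mrpl12* among them (-0.21, FDR = 0.0156). Rank products also called *Etfdh*, which passes electrons from fatty acid oxidation to coenzyme Q, lower (-0.24, FDR = 0.0337) and *Sqor* higher (0.44, FDR = 0.0303). The medians of the varying genes were -0.018 for the TCA cycle, -0.097 for coenzyme Q synthesis, 0.037 for the biogenesis regulators and -0.013 for the carriers. Of the 5 assembly factors outside the rule that varied, 2 were higher and 3 lower, at a median of -2.5e-07.

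Side by side, the L vs H median of the members was 0.14 in BAT, -0.016 in the liver and -0.026 in WAT. The tissues were summarized separately, and a difference between them was not tested. *Ndufs7* was apart between the diets both in BAT, where the H rats lay above, and in the liver, where the H rats lay below, with differences of 0.26 and -0.13. In WAT its difference was -0.012 (SE 0.088). *Ndufaf8* showed differences of 0.42 in BAT and -0.13 in the liver, and held 1 value in WAT. *Atp5if1* differed by -0.31 in BAT, -0.049 in the liver and 0.10 in WAT. None of these passed an adjusted limma p of 0.05.

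Within diets the members of a tissue went up and down together from rat to rat, in the liver mostly in the M-group. There the SD of the level of all members was 0.099 in the M-group, 0.013 in the L-group and 0.017 in the H-group. After the mean of each diet group was taken off, the mean pairwise correlation between members was 0.34 over 13 livers, 0.57 over 9 WAT arrays for the 51 members that varied, and 0.22 over 9 BAT arrays for 86. The same value over all probe sets above the tissue median was 0.0042, 0.019 and 0.066. These are descriptions over arrays that the genes share, and they mean that the members are not independent measurements of a diet effect.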

How the data were processed

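Total RNA of each tissue was labelled with biotin and measured on 31 Affymetrix arrays from 13 rats. The deposited values are log2 signals per probe set, which the authors made, per the study's methods, with RMA in the liver, qFARMS in WAT and GCRMA in BAT, each tissue on its own, so that tissues were compared only by their own differences. qFARMS gave 25762 probe sets 1 value on every array, and GCRMA left 13221 probe sets within 0.1 of the lowest value on every BAT array. No log2 value was changed. Of 31042 probe sets (57 controls left out), 20826 had 1 gene symbol, 436 several and 9780 none; only the first kind gave members.

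Each tissue was fitted with limma 3.58.1 in R 4.3.3 (lmFit and eBayes, Benjamini-Hochberg adjustment over all probe sets fitted, in WAT over the 5280 that varied by more than 1e-06), with the 3 liver diets in 1 fit. Rank products with 100 permutations within arrays, the test of the study, were computed in Python 3.11.15 with numpy 2.4.6 and pandas 2.3.3 over all probe sets, with higher and lower separate. A probe set was called at an adjusted p or an FDR under 0.05. Both scripts were tested on simulated data. Confidence intervals are 95% and come from limma. The number of arrays limits the precision.

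The members, the 9 pathway lists and the 8 marker lists were chosen with earlier results of these data known. Genes were named where they passed a test, where they had the 4 smallest p in a direction, where they had the highest mean or widest range of a complex, where they belonged to 1 of the paralog pairs of complex IV, or where they led another list. *Slc25a3*, *Ndufs1*, *Ndufs3*, *Ndufs4*, *Ndufv1* and the other subunits outside this rule were named for their place in a complex after their values were seen. The motifs were searched in RefSeq promoters of build GRCr8, and the build of the array annotation was not needed. Alternatives were centring, another quantile normalization, mean probe sets per gene, filters on probe sets and members, other limma settings, other thresholds, and leaving out each rat.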

Additional observations from a re-analysis of the deposited data

Results flagged for a closer look

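Dixon's test was run on 131 sets of values of 1 diet group and set 6 of them apart, where chance gives about 1 in 20, so that these 6 are about as many as chance would give. In the liver *Cox6a2*, the muscle form of subunit 6a, was 3.24 in H12, against 3.42 to 3.45 in the other H rats. *Ndufa4l2* was 4.51 in the liver of L1, against 4.71 to 4.73 in the other L rats, and *Ndufaf1*, a complex I assembly factor, was 5.54 in that of L3, against 5.63 to 5.66. In WAT the level of complex I, over all 34 members with the constant ones at 0, was 0.076 in L3, against -0.021 to 0.0052 in the other L rats, and *Ndufb2* was 11.14 in the same rat, against 10.92 to 10.97. *Sdhc* was 11.27 in the WAT of L5, against 11.49 to 11.57 in the other L rats.

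The probe set that matches both *Atp5mc1* and *Atp5mc1l1*, for subunit c of the ATP synthase, belongs to several genes and is therefore no member. In BAT it was 6.79 ± 0.41 (SD, n = 5) in the L-group, with a range of 6.13 to 7.21, and 5.69 ± 0.45 (SD, n = 4) in the H-group, with a range of 5.23 to 6.27. The log2 difference was -1.105 (SE 0.28), more than 3 times that of *Atp5mc3* (-0.34), in the same direction. Rank products called it lower (FDR = 0.0, the smallest value the permutations gave) and limma did not (adjusted p = 0.652). The groups overlapped in 1 rat of each. In the liver its L vs H difference was 0.12 (SE 0.061), and in WAT it stayed between 9.70305 and 9.70306.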

How the results depend on the processing

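No paired analysis was possible because the diet groups hold different rats, and the shared rat numbers join only tissues that were summarized separately. At an unadjusted p under 0.05 limma gave 1 member in liver L vs H, 2 in L vs M, 1 in M vs H, 1 in WAT and 41 in BAT. Under the other alternatives limma called 0 members in every comparison, with smallest adjusted p values from 0.069 in BAT upward. With each rat left out in turn, rank products called 0 members in the liver, 0 to 12 in WAT (12 without H12) and 0 to 1 in BAT (1 without H12). With each rat left out in turn the median difference of the members ranged from -0.022 to -0.0057 in liver L vs H, -0.075 to -0.011 in L vs M, 0.00035 to 0.072 in M vs H, -0.086 (without H12) to 0.00023 (without H15) in WAT, and 0.11 to 0.17 in BAT. In BAT it was 0.086 with the muscle markers as a covariate and 0.092 with H13 and H15 left out. In WAT *Cox8a* turned to -0.021 under another quantile normalization and to -0.0038 without H12, *Ndufb2* to -0.0057 without H12 and to -0.0035 without H16, and *Ndufv3* to -0.019 without H12, and the cause was not tested. With each rat left out these 3 ranged from -0.0038 to 0.036, -0.0057 to 0.085 and -0.019 to 0.16. By limma the differences of the named members kept their direction and side of the threshold in 639 of 644 alternatives, the other 5 being these reversals, while rank products called members without H12, as given above, *Atp5mc3* being the one in BAT. The 37 members with 1 value in WAT and the members near the lowest value in BAT have no measured difference there.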

Other observations

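Other probe sets that match several genes of the complexes gave these L vs H differences in BAT: 0.27 (SE 0.071) for that of *Ndufs5*, 0.12 (SE 0.035) for *Cox7a2*, 0.12 (SE 0.051) for *Uqcrb*, 0.056 (SE 0.048) for *Cox5a*, -0.018 (SE 0.11) for *Atp5mc2* and -0.11 (SE 0.11) for *Ndufa10*, none past an adjusted limma p of 0.05. *Cox7a1*, a form of heart and muscle that is also used in brown fat, lay at 3.32 ± 0.19 in the L-group (SD, n = 5) and 3.46 ± 0.074 in the H-group (SD, n = 4) of BAT, low in the range of that tissue, whereas *Cox8b* lay near its top.

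The marker lists of other cells gave these values in BAT. All 5 fibroblast markers were lower in the H-group in the mean (median -0.35), and rank products called *Col1a1* and *Col1a2*, the chains of type I collagen, lower. Of the other lists rank products called the endothelial receptor *Kdr* (0.71, FDR = 0.0182), the macrophage gene *Cd68* (0.74, FDR = 0.0230) and *Cyp2e1*, a cytochrome P450 (1.62), higher, and the leptin gene *Lep* (-0.80) lower. None of these passed limma, whose smallest adjusted p among them was 0.508. In WAT all 4 macrophage markers that varied were higher (median 0.26), with *Cd68* (0.50, FDR = 0.0156) and *Cd163* (0.26, FDR = 0.0448) called by rank products, and all 5 fibroblast markers were higher (median 0.13) with none called.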
